A study of Homo sapiens with 16 samples.

Results

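The intervals described here are those on chromosome 8 in 4 lists of TOP2B binding intervals from PC9 cells, with the region around MYC described in detail. They were chosen by chromosome alone, assigned by midpoint to 5 Mb windows of GRCh37, and number 1141 of the 44922 intervals of the 4 lists. PC9 is an established human lung adenocarcinoma line whose growth depends on mutant EGFR, the receptor kinase that osimertinib inhibits. Binding was measured by CUT&RUN, where a nuclease tethered to an antibody releases the DNA fragments bound by the antibody's target for sequencing. The 4 conditions were wild type untreated, METTL7A knockout untreated, wild type under osimertinib and METTL7A knockout under osimertinib. Treated cells were taken from 100 nM osimertinib through rising doses over 6 to 8 weeks. METTL7A belongs to the methyltransferase-like gene family. The labels do not say whether the knockout line is 1 clone or whether replicates came from separate cultures, and the genotype labels were not checked here.

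TOP2B is the beta isoform of DNA topoisomerase II, an enzyme that passes one DNA duplex through a transient break in another and so relieves the twist that transcription and looping create. It is known to sit at promoters, enhancers and the anchors of chromatin loops. Chromosome 8 carries MYC, a transcription factor gene and a frequent target of amplification in cancer, near the end of its long arm. PVT1, a long non-coding RNA gene, follows MYC directly, and CASC11, also a long non-coding RNA gene, precedes it. The end of the long arm beyond MYC is rich in genes, whereas much of the rest of the chromosome is gene-poor.

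Each condition had 2 replicate libraries and 1 deposited list made from them. With 1 list each, conditions could not be tested against replicate error. Values carry exact 95% intervals that cover counting error only, and neighbouring intervals are not independent of each other. An empty window means that no peak there was listed, and is no measure of zero signal. Maxima are given below in coverage steps, the smallest unit of a list's deposited signal, which is 0.0392, 0.0723, 0.0535 and 0.0379 in the 4 lists in the order above. A step thus differs between lists, and maxima in steps are compared only within a list. In deposited signal, the lowest maximum on chromosome 8 was 0.235, 0.217, 0.321 and 0.152 in the same order. Library depth is unknown here.

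Chromosome 8 held fewer intervals per length than all chromosomes together in every list, and ranked near the middle of the chromosomes or below it. It held 466 of 15281 intervals in untreated wild type, or 3.05% (95% interval 2.78 to 3.33). It held 316 of 12493 in the untreated knockout, or 2.53% (2.26 to 2.82). Under osimertinib it held 203 of 9655 in wild type, or 2.10% (1.83 to 2.41), and 156 of 7493 in the knockout, or 2.08% (1.77 to 2.43). The share was thus higher in both untreated lists than in both treated ones, and the treated lists were nearly equal. Per length, the chromosome held 3.18 intervals per Mb in untreated wild type, where all chromosomes together held 5.03, and 2.16 against 4.11 in the untreated knockout. Under osimertinib it held 1.39 against 3.18 per Mb in wild type and 1.07 against 2.47 in the knockout. Ranked by density, chromosome 8 stood 13th, 12th, 16th and 12th of 23 chromosomes in the 4 lists, in the order untreated wild type, untreated knockout, treated wild type and treated knockout.

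**Figure D1:**
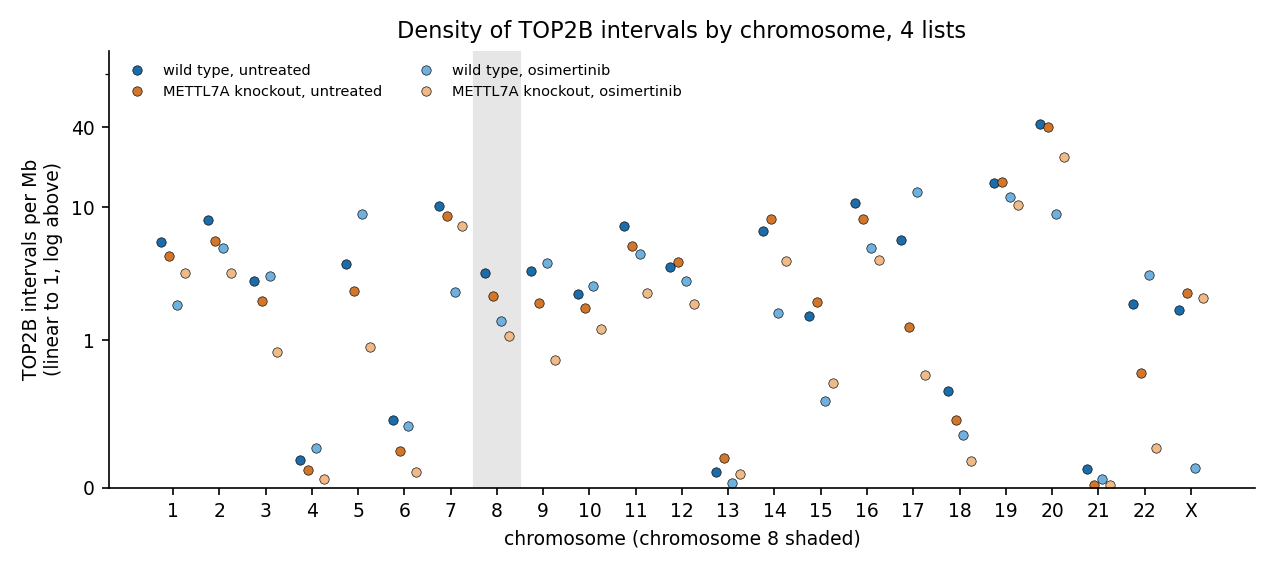
TOP2B intervals per Mb (vertical axis, linear to 1 and logarithmic above) for each of 23 chromosomes (horizontal axis), with 1 point for each of the 4 lists. Chromosome 8 is shaded: its points run from 3.18 per Mb in untreated wild type to 1.07 in the treated knockout.

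The share of chromosome 8 in the treated knockout was 0.99 times that in treated wild type (0.798 to 1.23). Of 17 chromosomes with at least 100 intervals in either treated list, this ratio was the nearest to 1. Chromosomes 12 and 16 also had intervals that include 1, with ratios of 0.856 (0.726 to 1.007) and 1.04 (0.904 to 1.2). Chromosomes 3 and 9 were farther from 1, with 0.392 (0.33 to 0.464) and 0.291 (0.237 to 0.355). Without drug, the knockout share was 0.829 times that of wild type (0.717 to 0.959). Among the stronger intervals, those with a maximum above the list median, the ratio without drug was 1.13, from 94 knockout and 89 wild-type intervals. The treated ratio of the stronger intervals was 1.5, from 37 and 29 in the same order. No interval for counting error was computed for either ratio, so whether they differ from 1 was not tested. Osimertinib against no treatment gave 0.689 in wild type (0.582 to 0.815) and 0.823 in the knockout (0.675 to 1.00). These ratios were 0.686 and 0.951 by called peaks, and 0.811 and 0.859 by summed length. In wild type, chromosomes 3, 9, 10 and 12 lay on the other side of 1, at 1.72 (1.53 to 1.93), 1.84 (1.62 to 2.09), 1.82 (1.55 to 2.13) and 1.24 (1.08 to 1.42), and chromosome 16 on the same side at 0.719 (0.641 to 0.805).

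Along the chromosome, the intervals were crowded towards the end of the long arm. The stretch from 140 Mb to the end, whose start was chosen after the counts were seen, held 283 of 466 intervals in untreated wild type, or 60.7% (56.1 to 65.2). It held 163 of 316 in the untreated knockout, or 51.6% (45.9 to 57.2), 144 of 203 in treated wild type, or 70.9% (64.2 to 77.1), and 99 of 156 in the treated knockout, or 63.5% (55.4 to 71). Density there was 44.5, 25.6, 22.6 and 15.6 intervals per Mb in the 4 lists, in the order untreated wild type, untreated knockout, treated wild type and treated knockout. Between 80 and 140 Mb it was 2.9, 2.3, 0.983 and 0.783 per Mb in the same order. In untreated wild type, intervals covered 13.7% of the bases from 140 Mb on and the median gap between them was 7.45 kb. In the treated knockout they covered 1.80% and the median gap was 28.2 kb.

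The short arm and the proximal long arm were nearly empty. The first 80 Mb held 9 intervals in untreated wild type, 15 in the untreated knockout, 0 in treated wild-type cells and 10 in treated knockout cells. Treated wild type had no interval on chromosome 8 before the window at 80 to 85 Mb, and the other lists had few. The bound at 80 Mb was also chosen after the counts were seen. The window at 20 to 25 Mb held 5 intervals in the untreated knockout and 0 in the other lists. It was singled out after its counts were seen, and was too sparse for the window comparisons below. From 60 to 80 Mb all 4 lists had 0 intervals.

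The window at 140 to 145 Mb held the most intervals in every list: 241 in untreated wild type, 139 in the untreated knockout, 123 in treated wild-type cells and 85 in treated knockout cells. That is between 44.0% of the chromosome 8 intervals in the untreated knockout and 60.6% in treated wild type. The window at 130 to 135 Mb, just beyond the one that holds MYC, was next in 3 of the lists, with 47 in untreated wild type, 31 in the untreated knockout and 16 in the treated knockout. In treated wild type it held 18, and the window from 145 Mb to the end came before it with 21. The window from 145 Mb held 42 in untreated wild type, 24 in the untreated knockout and 14 in the treated knockout.

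**Figure D2:**
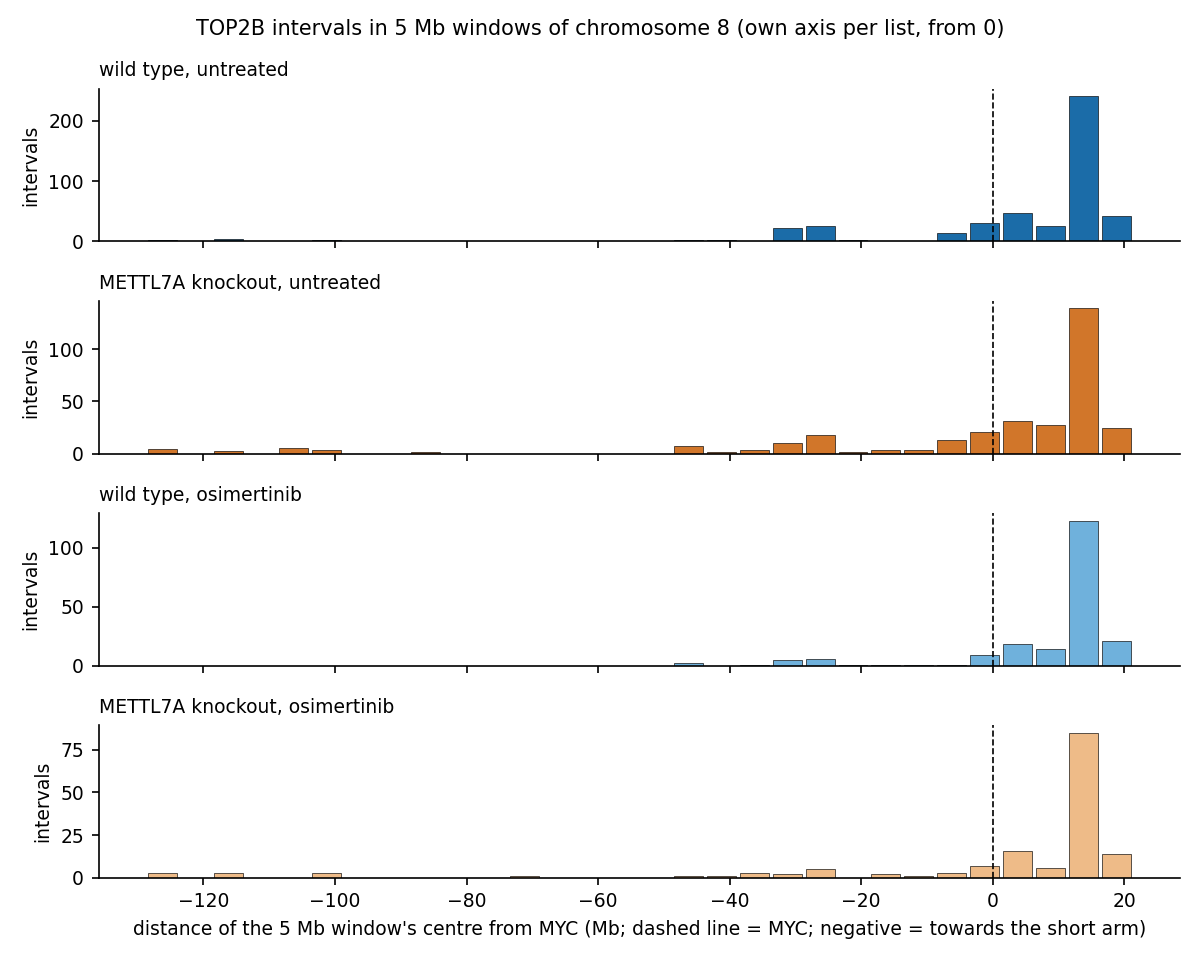
Number of TOP2B intervals (vertical axis, scaled for each list and starting at 0) in 5 Mb windows of chromosome 8, placed by the distance of the window's centre from MYC in Mb (horizontal axis, dashed line at MYC). In each of the 4 lists the tallest bar, between 85 and 241 intervals, lies beyond MYC near the end of the long arm, and the left of each panel is nearly empty.

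A window was counted as different when its share differed at least 2-fold, with 0.5 added to each count, where either list had 10 or more intervals. In untreated cells, 0 of 8 such windows on chromosome 8 differed between knockout and wild type, where 23.6% of windows on all chromosomes did. The share ratios were highest at 135 to 140 Mb with 27 knockout and 26 wild-type intervals (1.27, 0.713 to 2.27), at 120 to 125 Mb with 13 and 14 (1.14, 0.492 to 2.61) and at 100 to 105 Mb with 18 and 25 (0.881, 0.453 to 1.68). They were lowest at 95 to 100 Mb with 10 and 23 (0.532, 0.226 to 1.162), from 145 Mb on (0.699, 0.405 to 1.18) and at 140 to 145 Mb (0.705, 0.568 to 0.873). The last was the only one of the 8 whose interval left out 1. Counting each called peak once gave 1 of 8 windows past 2-fold, against 29.95% on all chromosomes, and examining windows with at least 5 intervals gave 2 of 10, against 28.0%.

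Under osimertinib, 0 of 4 windows on chromosome 8 differed 2-fold between knockout and wild type, where 75.1% of windows on all chromosomes did. The 4 windows had ratios of 1.15 at 130 to 135 Mb (0.546 to 2.38), 0.552 at 135 to 140 Mb (0.174 to 1.53), 0.89 at 140 to 145 Mb (0.667 to 1.18) and 0.859 from 145 Mb on (0.404 to 1.77). All 4 intervals include 1, and with 6 and 14 intervals at 135 to 140 Mb they are wide. Among 16 chromosomes with at least 4 windows examined, chromosome 8 was the only one with 0 windows past 2-fold. Summed length in place of number gave 1 such window of 4, against 78.2% on all chromosomes, and windows of 1 Mb gave 1 of 6, against 79%. Across the 18 windows with an interval in either treated list, Pearson's r of the counts was 0.996. That value rests largely on the window at 140 to 145 Mb. Before 140 Mb, across 18 windows with an interval in any of the 4 lists, r was 0.879 and Spearman's rho 0.576. Across the 399 occupied windows of the other chromosomes pooled, r was 0.286 and rho 0.448, values that also carry differences between chromosomes. Taken singly, other chromosomes with at least 10 occupied windows had a median r of 0.519. The highest was 0.947 on chromosome 12, where rho was 0.845. Of 19 such chromosomes, chromosome 8 ranked 1st by r and 4th by rho, which was 0.66 across its 18 windows. These are correlations across windows of single lists, given as descriptions.

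At 1 Mb, the window at 144 to 145 Mb held a smaller share in the knockout than in wild type in both treatments. Without drug the lists held 49 wild-type and 19 knockout intervals, 0.321% and 0.152% of their lists (ratio 0.474, 0.264 to 0.82). The treated lists, made from other libraries, had 30 and 11 in the same order, 0.311% and 0.147% (ratio 0.472, 0.214 to 0.97). Wild type was thus higher in both pairs by about the same ratio, and osimertinib against no treatment gave 0.969 in wild type and 0.965 in the knockout. By called peaks the ratios were 0.541 (0.288 to 0.993) and 0.636 (0.273 to 1.41). This window was singled out after its values were seen, and at least 2-fold lower shares in the knockout were found in 18.3% of 1 Mb windows on all chromosomes without drug and in 51% under osimertinib. The knockout share was also smaller in both treatments at 140 to 141 Mb and at 145 to 146 Mb. Without drug the ratios there were 0.513 (0.246 to 1.01) and 0.676 (0.377 to 1.18). Under osimertinib they were 0.564 (0.196 to 1.45) and 0.736 (0.33 to 1.57), and each of these intervals includes 1. The 2 windows with the most intervals were closer between genotypes, with all 4 ratios under 2-fold. At 142 to 143 Mb the lists held 66, 46, 34 and 29 intervals in untreated wild type, untreated knockout, treated wild type and treated knockout, and at 143 to 144 Mb 83, 53, 36 and 34. The ratios of knockout to wild type there were 0.853 and 0.781 without drug and 1.10 and 1.22 under osimertinib.

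**Figure D3:**
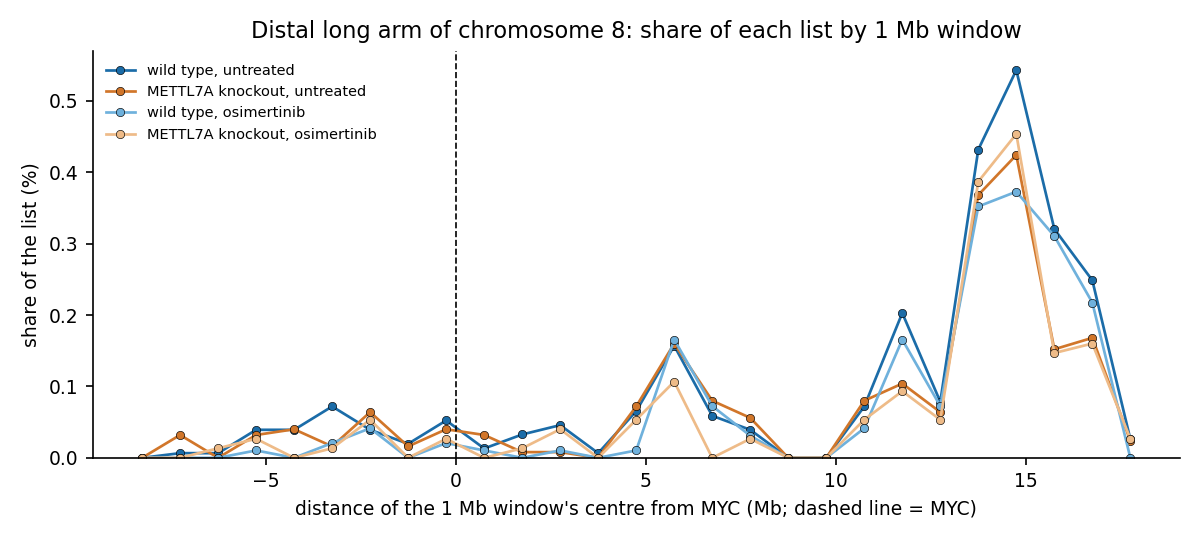
Share of each list in percent (vertical axis) in 1 Mb windows of the distal long arm, placed by distance from MYC in Mb (horizontal axis, dashed line at MYC), with 1 line per list. All 4 lines are highest at the window of 143 to 144 Mb (0.373 to 0.543%), and in the next window outwards both wild-type lines (0.321 and 0.311%) lie above both knockout lines (0.152 and 0.147%). Both wild-type lines also lie above both knockout lines in other windows, among them 140 to 141 Mb and 145 to 146 Mb.

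MYC itself, at 128748315 to 128753680 of chromosome 8, was overlapped by no interval in any list. The 5 Mb window that holds it, 125 to 130 Mb, held 30 intervals in untreated wild type, 21 in the untreated knockout, 9 in treated wild-type cells and 7 in treated knockout cells. Between genotypes the share ratio was 0.856 without drug (0.466 to 1.55) and 1.00 under osimertinib (0.317 to 3.02). By summed length the treated ratio was 0.545, and in a 10 Mb window around MYC it was 1.76 (0.754 to 4.23), so its direction depends on the measure. Among untreated intervals with a maximum above the list median, the window held 5 in the knockout and 1 in wild type, a ratio of 5.37 with an interval of 0.601 to 254. Osimertinib against no treatment gave 0.475 in wild type (0.198 to 1.03) and 0.556 in the knockout (0.2 to 1.36), and in the 10 Mb window 0.276 (0.131 to 0.529) and 0.641 (0.328 to 1.19). The window beside it towards the centromere, 120 to 125 Mb, held 14, 13, 1 and 3 intervals in untreated wild type, untreated knockout, treated wild type and treated knockout. Treated counts were below untreated ones in both genotypes in all 3 windows around MYC. The whole lists also shrank, to 0.632 of their untreated number in wild type and 0.5998 in the knockout. Among these windows of 5 Mb the intervals of the share ratios leave out 1 only at 120 to 125 Mb in wild type.

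Within 1 Mb of MYC untreated wild type had 11 intervals and the untreated knockout 10, whereas treated wild type had 3 and the treated knockout 2. These counts include intervals only 50 bp wide, at 127888251 to 127888300 in untreated wild type and at 128831801 to 128831850 in the treated knockout. As shares of the lists, osimertinib against no treatment gave 0.432 in wild type (0.0773 to 1.63) and 0.333 in the knockout (0.0355 to 1.56), where the whole lists shrank to 0.632 and 0.5998 of their untreated numbers. Both intervals include 1. On the side before MYC, towards CASC11, untreated wild type had 6 and the untreated knockout 3, and both treated lists had 0. The nearest treated interval on that side lay 2094 kb away in wild type and 2137 kb away in the knockout. On the PVT1 side the counts were 5, 7, 3 and 2 in untreated wild type, untreated knockout, treated wild type and treated knockout. The nearest interval of untreated wild type, at 128724151 to 128726750, lay 21.6 kb before MYC. The untreated knockout had its nearest interval at 128725251 to 128726700, wholly inside the wild-type one. In treated wild type the nearest was at 128878701 to 128879850, 125 kb beyond MYC. The treated knockout was the only list with an interval within 10 kb, at 128757351 to 128758600, 3.67 kb beyond the end of MYC, with a maximum of 6 steps where the median of its list was 8.

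Of the 26 intervals within 1 Mb of MYC, 3 pairs overlapped between lists, all 3 between the untreated genotypes. Besides the pair before MYC, these were the wild-type interval at 128927751 to 128931450 with the knockout interval at 128930951 to 128932200, and the wild-type interval at 129034101 to 129039000 with the knockout interval at 129035551 to 129037300, both on the PVT1 side. None of the 5 treated intervals in this reach overlapped an interval of another list. The second highest called peak of chromosome 8 in the untreated knockout also lay here, at 128945101 to 128946900, with a maximum of 9 steps (1.8 times the list median). It had no counterpart in another list, and the nearest wild-type interval was 13.7 kb away. Overlaps were also few over the whole of chromosome 8 before 140 Mb. There, 8 of 59 treated wild-type and 4 of 57 treated knockout intervals overlapped an untreated interval of the same genotype. Between the treated genotypes none did. In untreated cells, 26 of 153 knockout intervals overlapped a wild-type one. The 0 of 5 treated intervals near MYC is thus not set apart from that stretch.

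**Figure D4:**
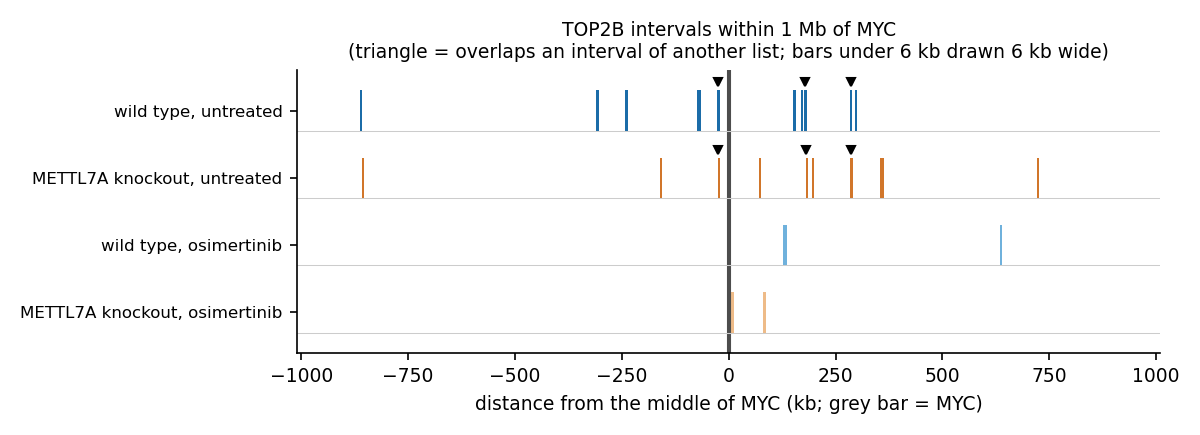
TOP2B intervals within 1 Mb of MYC by distance from the middle of the gene in kb (horizontal axis, grey bar at MYC), with 1 row per list and triangles over intervals that overlap one of another list. The untreated rows hold 11 and 10 intervals with 3 shared positions, and the treated rows hold 3 and 2, all on the PVT1 side.

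Under osimertinib the windows at 95 to 105 Mb and 120 to 130 Mb held smaller shares in both genotypes, and those from 140 Mb on held shares nearer to the untreated ones. In wild type, 4 of 8 windows had a share at least 2-fold lower and 0 at least 2-fold higher, where 33.2% of windows on all chromosomes were lower and 31.9% higher. Past 2-fold in either direction were 2 of 8 by summed length, where all chromosomes had 67.7%, and 2 of 10 windows of 1 Mb, where they had 69.0%. The lowest ratios were at 120 to 125 Mb with 1 treated and 14 untreated intervals (0.113, 0.00267 to 0.743), at 95 to 100 Mb with 5 and 23 (0.344, 0.102 to 0.925) and at 100 to 105 Mb with 6 and 25 (0.38, 0.127 to 0.949). The highest were at 135 to 140 Mb with 14 and 26 (0.852, 0.411 to 1.69), at 140 to 145 Mb with 123 and 241 (0.808, 0.645 to 1.01) and from 145 Mb on with 21 and 42 (0.791, 0.445 to 1.37). All 8 ratios were below 1, and 3 of their intervals left out 1.

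In the knockout, 4 of 8 windows had a share at least 2-fold lower under osimertinib and 0 at least 2-fold higher, where 19% of windows on all chromosomes were lower and 4.29% higher. In either direction it was 2 of 8 when each called peak was counted once, against 18.4% on all chromosomes, and 1 of 7 when the window edges were moved by 2.5 Mb, against 19.7%. The lowest ratios were at 95 to 100 Mb with 2 treated and 10 untreated intervals (0.333, 0.0355 to 1.56), at 135 to 140 Mb with 6 and 27 (0.371, 0.125 to 0.916) and at 120 to 125 Mb with 3 and 13 (0.385, 0.0703 to 1.4). The highest were at 140 to 145 Mb with 85 and 139 (1.02, 0.769 to 1.34), from 145 Mb on with 14 and 24 (0.973, 0.465 to 1.96) and at 130 to 135 Mb with 16 and 31 (0.861, 0.44 to 1.62). Of the 8 intervals, 7 included 1, and only that at 135 to 140 Mb left it out. For the whole stretch from 80 to 140 Mb the ratio was 0.537 in wild type (0.392 to 0.725) and 0.568 in the knockout (0.399 to 0.796). From 140 Mb on it was 0.805 in wild type (0.654 to 0.988) and 1.01 in the knockout (0.781 to 1.31). Whether the effect of osimertinib differed between genotypes was not tested.

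On chromosome 8, between 4.93 and 38.9% of the intervals of a list had a counterpart in the other list of a comparison. A counterpart is an interval of the other list that shares at least 1 bp. In untreated cells, 104 of 316 knockout intervals had one in wild type, 32.9% (27.8 to 38.4) beside 53.7% of the whole knockout list. In the other direction it was 102 of 466, 21.9% (18.2 to 25.9) beside 35.1%. Under osimertinib, 9 of 156 knockout intervals had one in wild type, 5.77% (2.67 to 10.7) beside 13.4%, and 10 of 203 wild-type intervals had one in the knockout, 4.93% (2.39 to 8.87) beside 10.5%. All 9 and all 10 lay beyond 140 Mb. Before 140 Mb, 0 of 57 treated knockout intervals and 0 of 59 treated wild-type intervals had a counterpart in the other genotype.

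Between treatments, in wild type, 79 of 203 treated intervals had an untreated counterpart, 38.9% (32.2 to 46) beside 28.7% of the whole treated list. In the other direction, 69 of 466 untreated intervals had a treated one, 14.8% (11.7 to 18.4), the same as the 14.8% of the whole list. In the knockout, 23 of 156 treated intervals had an untreated counterpart, 14.7% (9.58 to 21.3) beside 43.7%, and 21 of 316 untreated intervals had a treated one, 6.65% (4.16 to 9.98) beside 23.4%. The treated knockout share remained low where intervals were dense, with 19 of 99 from 140 Mb on, 19.2% (12 to 28.3). Over the same stretch 71 of 144 treated wild-type intervals had an untreated counterpart, 49.3% (40.9 to 57.8). Widths also differed between the lists. Median widths on chromosome 8 were 2550 bp in untreated wild type and 1550 bp in the untreated knockout. Under osimertinib they were 1250 bp in wild type and 1100 bp in the knockout. From 140 Mb on, untreated wild-type intervals covered 13.7% of the bases and untreated knockout intervals 4.12%. The part of width and coverage in these differences was not tested.

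**Figure D5:**
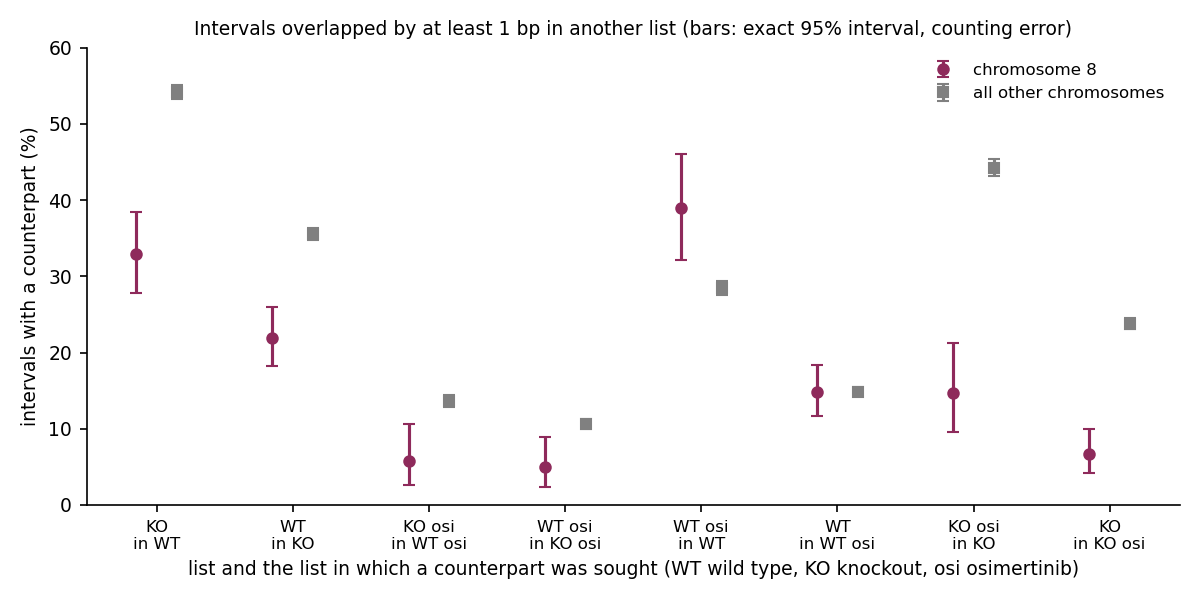
Percent of intervals with a counterpart in another list (vertical axis) for 8 pairs of lists (horizontal axis), on chromosome 8 (circles) and on all other chromosomes (squares), with exact 95% intervals for counting error as bars. Chromosome 8 lies below the other chromosomes in 6 of the 8 pairs, above them for treated in untreated wild type (38.9%), and level with them for untreated in treated wild type (14.8%).

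Merging overlapping intervals of the 4 lists gave 871 positions on chromosome 8. Of these, 672 (77.2%) came from 1 list, 160 from 2, 33 from 3 and 6 from all 4, and all 6 lay beyond 140 Mb. On all other chromosomes together 72.8% came from 1 list, 17.2% from 2, 7.73% from 3 and 2.34% from all 4. Of the 160 positions of 2 lists on chromosome 8, 66 joined the untreated genotypes, 41.25% where all other chromosomes had 48.2%. The wild-type lists were joined at 43 (26.9% against 18.6%), the knockout lists at 8 (5% against 8.23%) and the treated lists at 4 (2.5% against 2.98%). A further 29 joined untreated wild type with the treated knockout (18.1% against 15.5%). The untreated knockout was joined with treated wild type at 10 (6.25% against 6.4%). Bases common to all 4 lists were found at 1 position, 142379651 to 142380350 (700 bp). The intervals over it were 142379151 to 142381800 in untreated wild type, 142378951 to 142380350 in the untreated knockout, 142379451 to 142381700 in treated wild-type cells and 142379651 to 142380350 in treated knockout cells. Their called peaks had maxima of 14, 4, 11 and 8 steps in that order.

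Intervals with a maximum above the list median were a smaller share on chromosome 8 than on the other chromosomes in every list. Each piece of a split called peak carries that peak's maximum and is counted here. Such pieces made up 41.4% of chromosome 8 intervals in untreated wild type, where the other chromosomes had 50.2%. The shares were 3.16% against 3.34% in the untreated knockout, 42.4% against 50.1% in treated wild type and 14.1% against 34.1% in the treated knockout. The same share by called peaks was not computed. The median maximum was 11 steps in untreated wild type, 5 in the untreated knockout, 10 in treated wild-type cells and 7 in treated knockout cells, and 12, 5, 11 and 8 on the other chromosomes in the same order. A maximum above the list median was found for 19.1% of chromosome 8 intervals in untreated wild type (15.6 to 23), where the other chromosomes had 39.6%. The shares were 29.7% against 44.8% in the untreated knockout, 14.3% against 43% in treated wild type and 23.7% against 47% in the treated knockout. In untreated wild type the stronger intervals lay mostly at the end of the arm, with 77 of 283 from 140 Mb on (27.2%) and 12 of 183 before it (6.56%). In the untreated knockout the stretches were closer, with 51 of 163 (31.3%) and 43 of 153 (28.1%). The maximum belongs to a called peak, and its highest point fell beyond the listed interval for 47.9% of chromosome 8 intervals in untreated wild type, 13.6% in the untreated knockout, 69% in treated wild-type cells and 44.2% in treated knockout cells.

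The highest called peaks of 3 lists stood apart from other intervals. In untreated wild type the highest was at 58122051 to 58123100, with a maximum of 24 steps (2.0 times the list median), and no other interval of that list lay within 22892 kb. In the treated knockout the highest was at 58118301 to 58118900, 3.15 kb from it, with 16 steps (2.0 times the list median). The untreated knockout had its highest at 43822751 to 43823350, with 11 steps (2.2 times) and 14398 kb from the next interval of that list. In treated wild type the highest, of 16 steps (1.45 times), was split into 3 intervals, the first at 141554451 to 141555700. The second highest were at 144941701 to 144945050 in untreated wild type (22 steps, the first of 3 intervals), at 104703951 to 104705050 in treated wild type (15 steps) and at 144558601 to 144559600 in the treated knockout (13 steps).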

How the data were processed

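TOP2B CUT&RUN was analysed from 4 deposited lists, which the authors' naming calls intersected peaks, each from 2 replicate libraries. The 8 H2A samples were not analysed here. Alignment to GRCh37 and peak calling used Bowtie2 2.4.2, SAMtools 1.16, SEACR, deepTools 3.5.1, bedtools 2.30, Trimmomatic and FastQC, in an order that is not stated, per the submitters' processing notes. Peak calling settings and duplicate handling were not stated there. The lists have no header, and columns were identified from their values. The area of a called peak is a deposited score and was used to tell called peaks apart. The maximum of a called peak is a deposited signal, and within each list 100% of maxima were whole multiples of 1 coverage step (tolerance 0.01 steps).

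The depth per library is unknown from the lists. Intervals were counted by midpoint in 5 Mb windows. Shares carry exact Clopper-Pearson and ratios exact conditional 95% intervals (scipy 1.17.1). Densities use the standard chromosome lengths of GRCh37. The position of MYC was given with the choice of members, and the order of its neighbours was read from RefSeq. Other genes were not placed, because positions were not converted between builds. Window counts and overlaps were tested on simulated lists. Alternatives were called peaks counted once, summed length, intervals above the median maximum, other denominators, windows, minimum counts and overlaps. Named windows are the 1 with MYC and those beside it, the 3 with the most intervals in each list and the 3 highest and 3 lowest ratios of each comparison. Named intervals are the nearest to MYC, the 2 highest called peaks per list and positions in all 4 lists. The members, the windows and these rules were chosen with earlier results of these data known.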

Additional observations from a re-analysis of the deposited data

Results flagged for a closer look

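In 3 windows of chromosome 8 the same contrast ran in opposite directions in the paired conditions. None of these differences was tested, since each condition had 1 list, and each of the 6 intervals below includes 1. At 140 to 145 Mb, osimertinib against no treatment gave a share ratio of 0.808 in wild type (0.645 to 1.01) and 1.02 in the knockout (0.769 to 1.34), and the first divided by the second is 0.792. At 130 to 135 Mb, knockout against wild type gave 0.807 without drug (0.495 to 1.3) and 1.15 under osimertinib (0.546 to 2.38), a quotient of 0.704. At 135 to 140 Mb the same contrast gave 1.27 without drug (0.713 to 2.27) and 0.552 under osimertinib (0.174 to 1.53), a quotient of 2.3.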

How the results depend on the processing

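With intervals above the median maximum only, the share of chromosome 8 was 1.49, 1.69, 0.709 and 1.06% in untreated wild type, untreated knockout, treated wild type and treated knockout. Its ratio was 1.13 for knockout against wild type without drug and 1.5 for the treated genotypes. For osimertinib it was 0.475 in wild type and 0.626 in the knockout. No interval for counting error was computed for these ratios. The ratio of the MYC window without drug became 5.37. The cause was not tested. Outside chromosomes 5, 7, 17, 19 and 20 the shares were 5.21, 4.41, 3.79 and 3.90% in the same order, by the construction of the denominator. Counting called peaks once gave 3.35% in untreated wild type, and summed length 2.70% there and 2.14% in the untreated knockout.

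Windows past 2-fold in either direction follow as the number on chromosome 8 of those examined there, with the percent over all chromosomes. For knockout against wild type without drug they were 1 of 8 by called peaks (29.95%), 1 of 3 among the stronger intervals (20.7%), 2 of 11 at 1 Mb (21.9%) and 2 of 10 with at least 5 intervals (28.0%). Under osimertinib they were 1 of 4 by summed length (78.2%) and 1 of 6 at 1 Mb (79.0%). For osimertinib in wild type they were 2 of 8 by summed length (67.7%), 1 of 2 among the stronger intervals (82.5%) and 2 of 10 at 1 Mb (69.0%). In the knockout they were 2 of 8 by called peaks (18.4%), 0 of 2 among the stronger intervals (36.9%), 1 of 8 at 1 Mb (18.1%), 1 of 7 with shifted windows (19.7%) and 1 of 5 with at least 20 intervals (12.8%).

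Every share without a counterpart moved with the rule used. The shares below were computed on chromosome 8 only, so none can be read as particular to this chromosome. The values of 100% rest on 37 treated knockout and 29 treated wild-type intervals. For knockout in wild type, wild type in knockout, treated knockout in treated wild type and the reverse, it was 88.6, 92.3, 98.1 and 98.5% with 50% of both intervals, 40.5, 57.3, 68.6 and 71.9% within 5 kb, and 91.5, 91.0, 100 and 100% among the stronger intervals. For treated in untreated wild type, the reverse, treated in untreated knockout and the reverse, it was 94.1, 97.4, 92.9 and 96.5% with 50% of both, 34.0, 70.8, 60.9 and 76.6% within 5 kb, and 75.9, 95.5, 91.9 and 96.8% among the stronger intervals.

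By called peaks the median width was 2900 bp in untreated and 1400 bp in treated wild type. Alternatives added after the data were seen that start the distal stretch 2 Mb later gave it 51.5, 44.9 and 59.6% of chromosome 8 in untreated wild type, untreated knockout and treated wild type. From 140 Mb it held 52.7% by called peaks and 66.4% by summed length in untreated wild type. No paired analysis was possible because each list merges its 2 replicates, and for the same reason no replicate could be left out. The depth of the libraries is unknown.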
